A study of Mus musculus with 6 samples.

Results

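Fibroblast growth factors (FGFs) and their receptors were described in skull osteoblast RNA, with Fgf10, Fgf7, Fgf1, Fgf2, Fgf18, Fgf11, Fgf13, Fgfr1, Fgfr2 and Fgfr3 as the 10 members, among 17830 genes in the count table. Fgf10 was selected on its genotype fold change, as the well-measured gene with the deepest reduction in APPswe cells, and the other 9 were listed as relatives that these cells express. The values of Fgf10 are therefore a description and carry no test, and calls on the other 9 are read beside the share of all genes called.

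The cells came from calvariae of mice aged 6 months, given as male in the study. The labels describe culture of the cells that left cleaned bone fragments, and bulk RNA sequencing of tdTomato-positive cells isolated by flow cytometry, without giving the order of culture and sorting. The control genotype was mOCN-Cre;Ai9 (n = 3 libraries), and the APPswe genotype was TgAPPswe with mOCN-Cre and Ai9, written TgAPPswemOCN-Cre;Ai9 (n = 3 libraries). Both genotypes thus carried the Cre recombinase, expressed from the osteocalcin (Bglap) gene, and the Ai9 reporter, which makes the red protein tdTomato after Cre has acted. The APPswe mice also carried a transgene for human amyloid precursor protein with the Swedish mutation, switched on by the same Cre, so a cell outside the osteoblast lineage that once expressed Cre would be tagged too. The sources do not say whether the 3 libraries of a genotype came from separate animals or cultures, so the p-values measure only the spread between these libraries.

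FGFs are signalling proteins that bind receptor tyrosine kinases on the cell surface together with heparan sulfate chains. A bound receptor drives the RAS to ERK and PI3K to AKT cascades, and ERK activity raises ETS factors, Sprouty proteins and dual-specificity phosphatases, several of which dampen the signal. In the skull, FGF signalling controls osteoblast precursors at the sutures, and activating mutations of FGFR1, FGFR2 or FGFR3 cause early suture fusion. FGF7 and FGF10 form a subfamily made mainly by mesenchymal cells, and both act on the IIIb splice form of FGFR2, which epithelial cells express.

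The pair Fgf7 and Fgf10 moved in opposite directions, and the 250 bases upstream of their annotated starts are therefore shown (RefSeq, GRCm38.p6, plus strand). No annotated exon lies inside either window. Capitals mark E-boxes, the CANNTG letters that basic helix-loop-helix factors can bind.
Fgf7, chr2:126034408-126034657: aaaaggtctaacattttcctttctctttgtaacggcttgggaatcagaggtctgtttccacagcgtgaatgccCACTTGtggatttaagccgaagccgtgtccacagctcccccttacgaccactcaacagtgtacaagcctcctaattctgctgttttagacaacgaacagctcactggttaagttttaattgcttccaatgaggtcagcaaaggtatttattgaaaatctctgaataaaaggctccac
Fgf10, chr13:118714449-118714698: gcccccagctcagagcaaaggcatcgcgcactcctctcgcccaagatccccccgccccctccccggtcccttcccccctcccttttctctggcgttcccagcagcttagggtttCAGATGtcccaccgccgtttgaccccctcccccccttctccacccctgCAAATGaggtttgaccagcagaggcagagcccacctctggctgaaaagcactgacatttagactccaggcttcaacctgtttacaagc
The Fgf10 window held 61.2% G or C, a value above that of 74.8% of all 32851 windows of this length, with 8 CpG sites and 2 E-boxes. The Fgf7 window held 43.6% G or C, above 20.1% of windows, with 6 CpG sites and 1 E-box. An E-box on either strand was present in 66.2% of all windows. The letters TGTGGT (the RUNX core), TGANTCA (AP-1) and TATAAA, searched on both strands, were present in 14.0%, 6.75% and 12.4% of all windows and in neither of these.

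The libraries were of like depth, with total counts from 17263757 to 18398392. No 2 libraries agreed within sampling noise. Control replicate 2 stood apart from the other 5 libraries. Its library name has the letter S (Ctrl-S) where all the other names have L, and what the letters stand for is not known here. Control replicate 2 held 2 counts over 4 Y-linked genes, where the others held 2257 to 3406. Bglap, the gene that drives Cre, had 1 count in control replicate 2 and 115 to 204 counts elsewhere, and Dmp1, a marker of late osteoblasts and osteocytes, had 2 counts there. These values go against what the sources give for that library, male mice and cells tagged through Bglap, and the cause was not tested. The main counts of members below are therefore also given without it. The mouse App gene had 17020 to 22893 counts in control and 18100 to 18818 in APPswe libraries, and whether reads of the human transgene were counted with it is not given in the sources used here. Osteoblast markers summed to 20392 to 21416 CPM (counts scaled by library size) in control and 16339 to 17212 CPM in APPswe libraries. The sum was carried by Spp1, Col1a1, Col1a2 and Sparc, and the median of the 12 markers was 32.7, 1.91 and 33.8 CPM in control and 43.5 to 44.1 CPM in APPswe libraries. In control replicate 2, 7 of the 12 held at most 0.5 of the mean of the other controls, and Bglap and Dmp1 were under the floor of 3 counts. Macrophage markers summed to a like level, at 17976 to 24861 CPM in control and 12433 to 13428 CPM in APPswe libraries. The median macrophage marker was at 595, 754 and 564 CPM in control and 407 to 464 CPM in APPswe libraries. By the median, macrophage markers thus stood above the osteoblast markers in every library. By adjusted p whatever the fold, 1 of 13 macrophage markers was higher and 9 were lower in APPswe cells. Of all genes 10.5% were higher and 12.0% lower by that measure. The median log2 fold change of the macrophage markers was -0.81, and 1 was called higher and 2 lower. Of the 12 osteoblast markers 1 was called in each direction. Of all genes 3.74% were called higher and 3.60% lower.

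A gene was called where its adjusted p did not exceed 0.05 and its log2 difference between genotypes was 1 or more in size (edgeR quasi-likelihood test over 13484 genes). By this rule 504 genes or 3.74% were called higher in APPswe cells and 486 genes or 3.60% were called lower. All 10 members passed the filter on low counts, which keeps a gene that is well counted in only 1 genotype. Fgf7 and Fgfr3 were called higher, Fgf13 was called lower, and Fgf10, chosen by this contrast, lay among the genes called lower. The median log2 fold change of the 9 members other than Fgf10 was 0.28, against -0.0033 over all genes. Without control replicate 2, Fgfr3 alone was called higher, where 4.87% of all genes were, and Fgf13 and Fgf1 were called lower besides Fgf10, where 6.58% of all genes were called lower. With APPswe replicate 1, 2 or 3 left out, no member was called in either direction in edgeR. In each fit 4 of the 9 members other than Fgf10 had an unadjusted p under 0.05. Of all genes 29.3%, 27.2% and 27% did. The count of the 9 at that unadjusted limit was 4 over all libraries (37.2% of all genes) and 8 without control replicate 2 (55.0% of all genes). Fgf7, Fgf13 and Fgfr3 kept their direction in these fits, and their adjusted p ranged from 0.0573 to 0.0924. The library names come in 2 styles, with 2 control and 1 APPswe library in the first and the reverse in the second. Within them the log2 differences were 1.38 and 0.87 for Fgf7, 1.57 and 1.11 for Fgfr3, and -1.14 and -1.79 for Fgf13. In bulk RNA, fewer cells that express a gene and less of its RNA in each cell cannot be told apart.

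**Figure D1:**
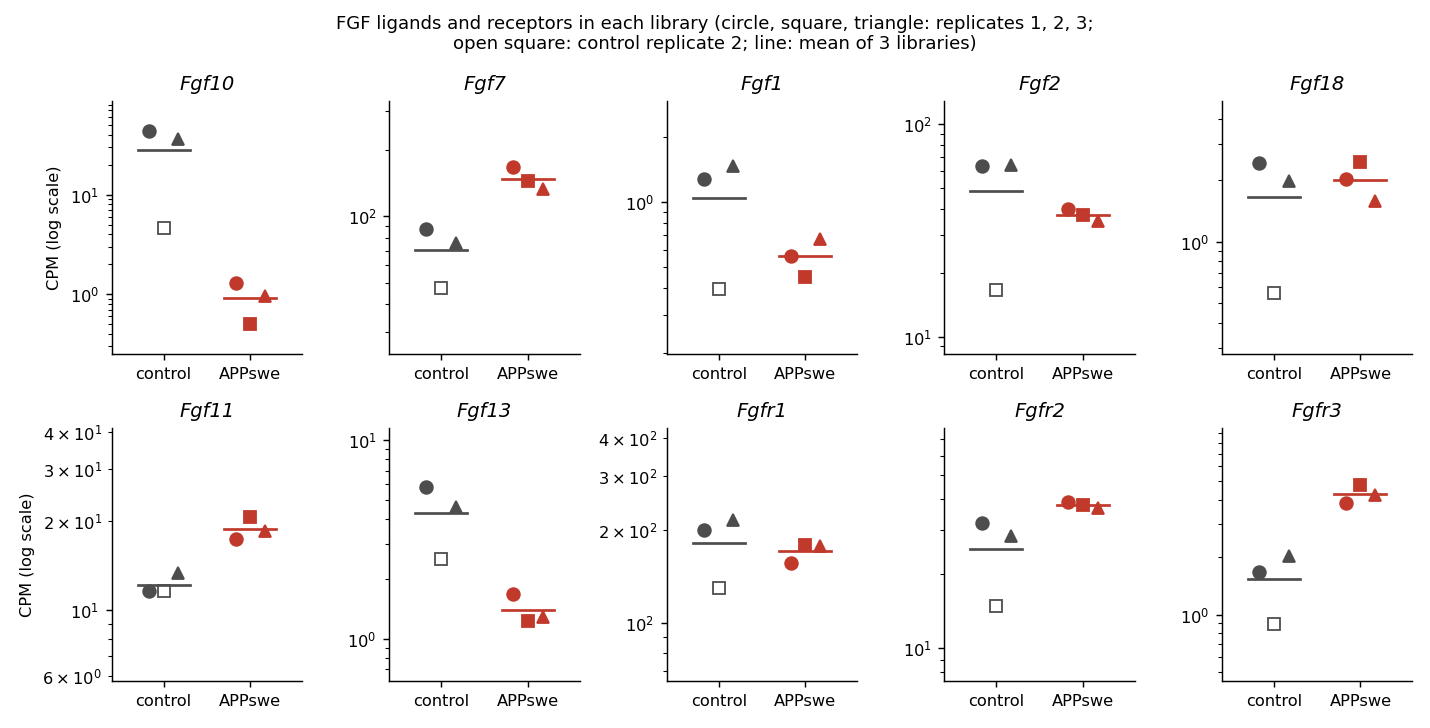
CPM of each member (log axis, with its own range in each panel) in the 3 control (grey) and 3 APPswe (red) libraries, with replicates 1, 2 and 3 as circle, square and triangle and the mean as a line. The open square, control replicate 2, is the lowest control value in every panel. The genotypes do not overlap for Fgf7, Fgf11, Fgf13, Fgfr2 and Fgfr3, nor for Fgf10, whose selection required it.

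Fgf10 (NCBI gene 14165, chr13:118714699-118792573) is the mesenchymal signal required for limb and lung budding. It had 43.7, 4.61 and 36.5 CPM in control replicates 1, 2 and 3 and 1.29, 0.501 and 0.955 CPM in APPswe replicates 1, 2 and 3. Every APPswe library lay below every control library, which the selection of Fgf10 required. Control replicate 2 held only 0.115 of the mean of the other controls. The counts behind these values were 756, 82 and 647 in control and 23, 9 and 17 in APPswe libraries, so the transcript was still above the floor of 3 counts in each APPswe library. The means were 28.3 ± 20.8 CPM and 0.915 ± 0.396 CPM (SD, n = 3 each), a level 30.9-fold lower in APPswe cells. The fitted log2 fold change was -4.94 (SE 0.90), and -5.44 (SE 0.19) without control replicate 2. Within the 2 styles of library name the log2 difference of Fgf10 was -3.36 and -5.50.

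The selection of Fgf10 came from 380 genes called lower with separated genotypes and a mean log2 CPM of at least 1. Next in that order stood Mcoln3 (-4.75), which encodes an endolysosomal cation channel, Slco4a1 (-4.50), which encodes an organic anion transporter, and LOC115488503 (-4.01). Mcoln3 was also the closest to Fgf10 in its profile over the 6 libraries, with a root mean square difference of centred log2 CPM of 0.480 among 12214 genes compared. Mcoln3 had 38.6, 2.53 and 34.6 CPM in control and 1.01, 0.947 and 0.843 CPM in APPswe libraries, so it shared the low value in control replicate 2. LOC115488503 (0.703), Nfasc (0.851), Ccl8 (0.859) and Gm40814 (0.876) followed. Among the 7 FGF members compared (Fgf1 and Fgf18 were below the level limit), Fgf13 came nearest (1.61, rank 86), whereas Fgf7 (2.85, rank 11740) and Fgfr3 (3.03, rank 11953) were among the least alike.

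Fgf7 (NCBI gene 14178, chr2:126034658-126091185) encodes keratinocyte growth factor, the close relative of FGF10. It had 87.5, 47.4 and 75.6 CPM in control and 167, 144 and 133 CPM in APPswe libraries. All 3 APPswe values exceeded all 3 control values, and the lowest control value was again replicate 2. The means were 70.2 ± 20.6 and 148 ± 17.4 CPM (SD, n = 3 each), and Fgf7 rose by 1.08 on the log2 scale (SE 0.22, adjusted p = 0.0175). Without control replicate 2 the difference was 0.87 (SE 0.10, adjusted p = 5.37e-05), which is under the fold limit for a call.

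The balance of the 2 relatives was compared on the authors' FPKM scale, which divides by transcript length. Fgf7 held 3.58, 18.3 and 3.70 times the FPKM of Fgf10 in control and 232, 509 and 245 times in APPswe libraries. The ratios of the genotypes did not overlap, and Fgf7 was the more abundant of the pair in all 6 libraries. The summed FPKM of both was 45.4, 20.3 and 38.4 in control and 72.1, 61.2 and 56.5 in APPswe libraries, so the sum was higher in every APPswe library. Of the FPKM of the 5 ligands that act outside the cell (Fgf1, Fgf2, Fgf7, Fgf10 and Fgf18), Fgf10 made up 16.9%, 4.27% and 15.4% in control and 0.379%, 0.168% and 0.354% in APPswe libraries. The share of Fgf7 was 57.1% to 78.2% in control and 85.5% to 87.8% in APPswe libraries. Since Fgf10 was chosen on its change, these ratios are given without a test.

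**Figure D2:**
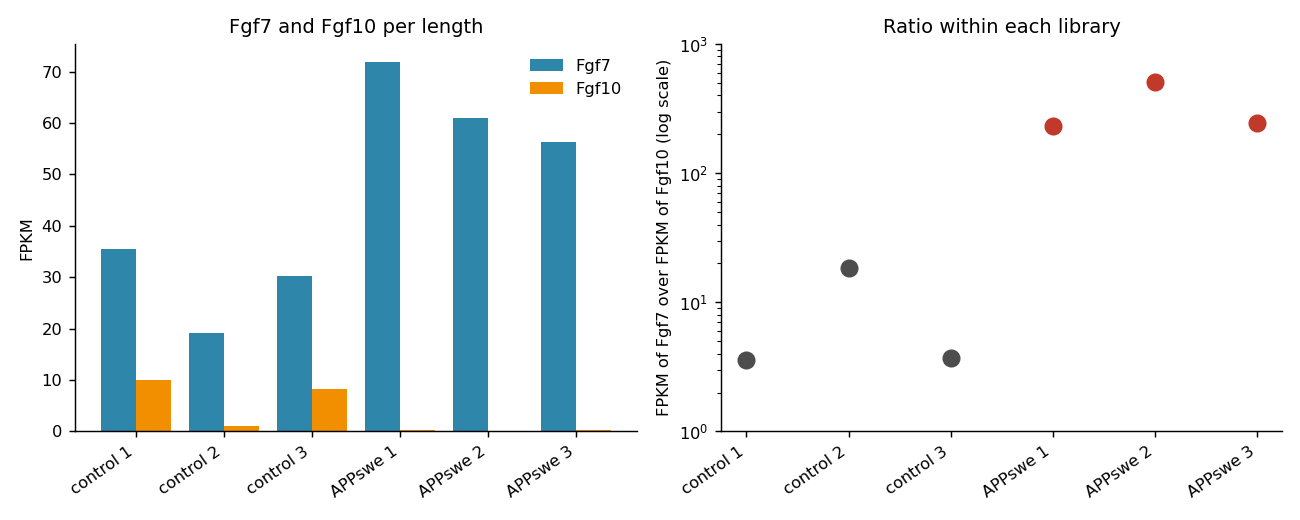
Left, FPKM of Fgf7 (blue) and Fgf10 (orange) in each library, as bars from 0; right, the ratio of the FPKM of Fgf7 to that of Fgf10 in the same libraries on a log axis. The ratio was 3.58 to 18.3 in the 3 control (grey) libraries and 232 to 509 in the 3 APPswe (red) libraries.

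Of the members, Fgf2, Fgf1 and Fgf18 were not called over all 6 libraries. Fgf2 (NCBI gene 14173, chr3:37348477-37410106), a broad mitogen stored in bone matrix, had 63.7, 16.5 and 64.5 CPM in control and 40.0, 37.3 and 35.2 CPM in APPswe libraries. The APPswe values fell between control replicate 2 and the other controls. The log2 fold change of Fgf2 was -0.36 (SE 0.46, adjusted p = 0.604), and -0.77 (SE 0.08, adjusted p = 1.43e-05) without control replicate 2. Fgf2 shares 640 exonic bases with Nudt6 on the opposite strand. Whether the counting used strand is not given in the sources used here, so reads of the 2 genes may be mixed. Exons of Fgfr3 (998 bases), Fgfr1 (164 bases) and Fgf10 (123 bases) also overlap genes of the opposite strand that were not counted. The same limit holds for these members. On the same strand, Fgf2 shares 255 exonic bases with Gm43439, which was not counted, and Fgfr2 shares 314 with Ctbp2, which was. Strand cannot separate reads of such bases. Whether the gene models used for counting hold these overlaps is not given in the sources used here.

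Fgf1, which can activate all FGF receptors, was near the lower end of detection. It had 1.27, 0.393 and 1.47 CPM in control and 0.561, 0.446 and 0.674 CPM in APPswe libraries, from 7 to 26 counts. As for Fgf2, the APPswe values overlapped the controls only through replicate 2. The log2 fold change of Fgf1 was -0.89 (SE 0.51, adjusted p = 0.250), and -1.28 (SE 0.30, adjusted p = 0.00506) without that library. Fgf18 (NCBI gene 14172, chr11:33116970-33147400), which promotes osteoblast maturation in the developing calvaria, had 2.43, 0.562 and 1.98 CPM in control and 2.02, 2.45 and 1.57 CPM in APPswe libraries. Its genotypes overlapped, and the sign of its log2 fold change depended on control replicate 2: 0.28 (SE 0.49, adjusted p = 0.714) with it and -0.12 (adjusted p = 0.699) without.

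Fgf11 and Fgf13 encode FGF homologous factors, which stay inside the cell, lack the usual receptor activity and bind voltage-gated sodium channels. Fgf13 (NCBI gene 14168, chrX:59062139-59585572) had 5.77, 2.53 and 4.63 CPM in control and 1.68, 1.23 and 1.29 CPM in APPswe libraries, with no overlap. The means were 4.31 ± 1.65 and 1.40 ± 0.246 CPM (SD, n = 3 each), and the log2 fold change of Fgf13 was -1.62 (SE 0.35, adjusted p = 0.0197), and -1.88 (adjusted p = 2.76e-05) without control replicate 2. The call of Fgf13 was lost without control replicate 1 (adjusted p = 0.0539) and without control replicate 3 (adjusted p = 0.0552). Fgf11 (NCBI gene 14166, chr11:69796068-69802944) moved the other way. It had 11.7, 11.6 and 13.4 CPM in control and 17.4, 20.6 and 18.5 CPM in APPswe libraries, and it was the member least affected by control replicate 2. The rise of Fgf11 was smaller than the fold limit for a call, at a log2 fold change of 0.63 (SE 0.12, adjusted p = 0.0140).

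Of the 3 receptors, Fgfr3 (NCBI gene 14184, chr5:33721724-33737068), a restraint on bone growth in cartilage that osteoblasts also express, was the only one called. Fgfr3 had 1.67, 0.899 and 2.03 CPM in control and 3.87, 4.79 and 4.27 CPM in APPswe libraries, and the lowest APPswe value lay above the highest control value. The log2 fold change was 1.49 (SE 0.31, adjusted p = 0.0182), and 1.22 (adjusted p = 0.000476) without control replicate 2. With the replicate number as a block, Fgfr3 lost its call (adjusted p = 0.0566).

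Fgfr2 (NCBI gene 14183, chr7:130162451-130266808), the receptor most often mutated in syndromes of early suture fusion, had 32.2, 14.8 and 28.4 CPM in control and 39.0, 38.1 and 36.9 CPM in APPswe libraries. The values did not overlap, but the log2 fold change of 0.60 (SE 0.26) had an adjusted p of 0.151. Without control replicate 2 the difference was 0.33 (adjusted p = 0.00808). The counts are per gene, so the IIIb and IIIc splice forms of Fgfr2 were not told apart. Fgfr1 (NCBI gene 14182, chr8:25518759-25575718), which is active in osteoblast precursors and in mature osteoblasts, had 200, 130 and 215 CPM in control and 157, 179 and 178 CPM in APPswe libraries. These values overlapped, with a log2 fold change of -0.09 (SE 0.19, adjusted p = 0.775), and -0.28 (adjusted p = 0.0107) without control replicate 2.

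Per length, Fgfr1 supplied most of the receptor signal in every library. It made up 85.8%, 89.5% and 88.1% of the summed FPKM of the 3 receptors in control and 79.0%, 81.0% and 81.5% in APPswe libraries. The share of Fgfr2 was 9.73% to 13.3% in control and 16.2% to 18.7% in APPswe libraries, and that of Fgfr3 was 0.776% to 1.03% and 2.29% to 2.58%. The 3 shares did not overlap between genotypes. The summed receptor FPKM was 50.2, 30.9 and 51.7 in control and 45.0 to 49.6 in APPswe libraries. The control range contained the APPswe sums only through control replicate 2, and both other controls lay above them. FPKM per CPM of 1 gene varied up to 1.29-fold between libraries (for Fgf2), which limits small differences on this scale.

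Among the 9 members other than Fgf10, the APPswe libraries all lay above the controls for 4 (Fgf7, Fgf11, Fgfr2 and Fgfr3), against 22.8% of all genes, and all below for 1 (Fgf13), against 22.2%. With control replicate 2 left out these counts were 4 above (33.2% of all genes) and 4 below (32.8% of all genes), since Fgf1, Fgf2 and Fgfr1 then also lay below. In 6 of the 9, and in Fgf10, control replicate 2 held at most 0.5 of the mean CPM of the other controls, against 8.46% of all genes. When the adjusted p alone was asked to pass 0.05, 3 of the 9 were higher (10.5% of all genes) and 1 was lower (12.0% of all genes). The same counts without control replicate 2 were 4 higher and 4 lower, where 23.3% and 25.0% of all genes were.

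**Figure D3:**
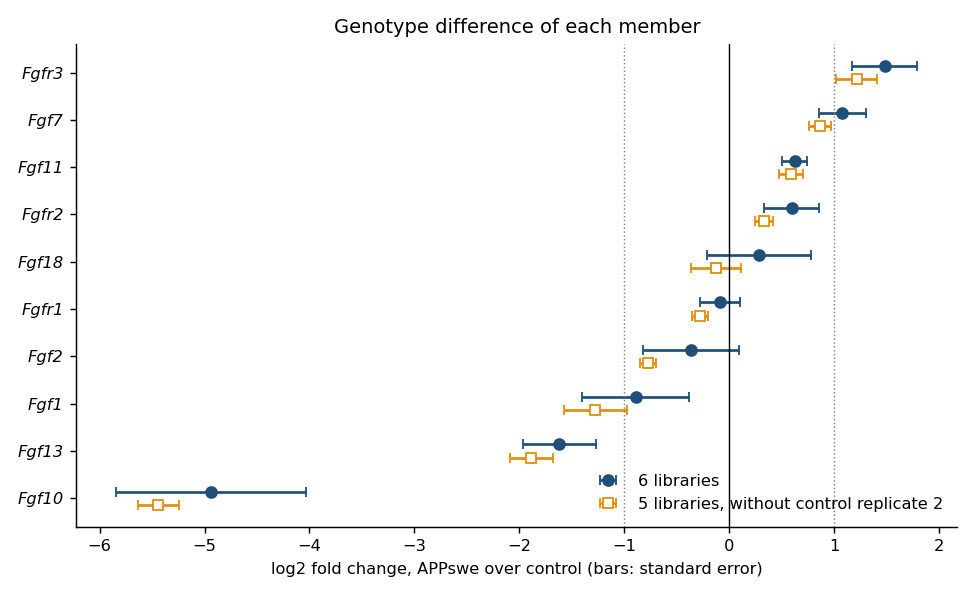
Log2 fold change of APPswe over control for each member (points, bars are the standard error), from all 6 libraries (filled) and from 5 without control replicate 2 (open). Fgf18 crosses 0 between the fits, and the values of Fgf10, -4.94 and -5.44, lie far from those of the other 9 members, which run from -1.88 to 1.49; dotted lines mark the fold limit for a call.

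Markers of other cell types moved with these differences, and their part in them was not tested. The called counts below stand beside 3.74% of all genes called higher and 3.60% called lower. Endothelial markers (7 genes) summed to 245, 83.5 and 262 CPM in control and 27.4, 27.5 and 30.0 CPM in APPswe libraries, and 2 of the 7 were called lower, with none at 0 in any library. Their median was 38.2, 0.787 and 46.8 CPM in control and 2.40 to 3.03 CPM in APPswe libraries, so in control replicate 2 the sum lay above the APPswe libraries and the median below them. Pecam1, which marks endothelium, had 827, 1 and 895 counts in control and 31, 43 and 54 counts in APPswe libraries. Fibroblast markers (8 genes) summed to 2135 to 4103 CPM in control and 7288 to 7464 CPM in APPswe libraries, with 3 called higher. Their median marker did not follow the sum, at 301, 154 and 286 CPM in control and 247 to 271 CPM in APPswe libraries. Skeletal muscle markers reached 2.54 to 12.3 CPM in control and 170 to 174 CPM in APPswe libraries, and all 9 tested were called higher, with Ckm at 0 in every control library. Osteoclast markers summed to 143 to 223 CPM in control and 646 to 662 CPM in APPswe libraries, and 4 of 6 tested were called higher. Chondrocyte markers summed to 24.5 to 176 CPM in control and 45.9 to 49.9 CPM in APPswe libraries, with 1 of 3 tested called higher. Marrow stroma markers summed to 858, 81.3 and 907 CPM in control and 685 to 718 CPM in APPswe libraries. That sum was low in control replicate 2, as most FGF members were. None of the 5 was called in edgeR, and their median log2 fold change was -0.27. An unadjusted p under 0.05 was reached by 2 of the 5, and by 37.2% of all genes. Epithelial markers, which would mark the usual responders to FGF7 and FGF10, summed to 0.564 to 1.29 CPM in all libraries.

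The remaining FGF genes of the table were mostly too low to test. Of 13 further ligands and receptors present there, 3 were tested and Fgf21 was called. Fgf21, a circulating metabolic hormone of the liver and stressed cells, had 1, 4 and 3 counts in control and 26, 30 and 36 counts in APPswe libraries, with a log2 fold change of 3.45 (SE 0.42, adjusted p = 0.00301). Fgf5 (-0.48, adjusted p = 0.479) and Fgfrl1 (0.33, adjusted p = 0.212) were not called. Of the untested genes, named after their values were seen, Fgf12 had 8, 1 and 11 counts in control and 0, 1 and 0 counts in APPswe libraries, and Fgf16 had 6, 2 and 6 counts in control and 0 in each APPswe library. Fgfr4 had 0 counts in each control and 4, 5 and 6 counts in APPswe libraries. These numbers are too small for a fold to be given.

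Co-receptors and heparan sulfate genes present the ligand to the receptor. Of 24 tested, Gpc3 and Gpc2 were called higher and Sdc3 was called lower (3.74% and 3.60% of all genes were), and the median log2 fold change was -0.03. The glypican Gpc2 had 6.93, 5.79 and 7.51 CPM in control and 16.1, 19.3 and 20.5 CPM in APPswe libraries (log2 fold change 1.46, SE 0.16, adjusted p = 0.00185). Gpc3, also a glypican, differed by 1.83 (SE 0.32, adjusted p = 0.00958) at levels of 0.621 to 4.27 CPM. The syndecan Sdc3 fell from 562, 862 and 654 CPM to 286, 318 and 315 CPM (-1.18, SE 0.16, adjusted p = 0.00431). By adjusted p whatever the fold, 5 genes were higher and 8 were lower, where 10.5% and 12.0% of all genes were. Without control replicate 2, Gpc2 and Gpc3 were again called higher, whereas Sdc3 lost its call (-0.99) and Fgfbp3, which encodes an FGF binding protein and was named after its values were seen, was called lower (-1.14).

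Among 27 genes that carry the signal from the receptor to ERK, AKT and STAT, none was called in edgeR and 1 by DESeq2. In edgeR 12 of them had an unadjusted p under 0.05, where 37.2% of all genes did. By adjusted p whatever the fold, 3 genes were higher and 3 were lower, where 10.5% and 12.0% of all genes were. Akt1, the kinase with the highest mean FPKM of the list over all 6 libraries, had 335, 370 and 366 CPM in control and 286, 321 and 320 CPM in APPswe libraries (-0.21, SE 0.08, adjusted p = 0.123).

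Feedback regulators and targets of FGF signalling went both ways, with 3 of 23 called higher and 3 called lower, where 3.74% and 3.60% of all genes were, and a median log2 fold change of -0.12. The immediate early factor Fos had 40.4, 22.1 and 45.0 CPM in control and 85.2, 97.1 and 90.8 CPM in APPswe libraries (log2 fold change 1.34, SE 0.25, adjusted p = 0.0119). Egr1 (1.23, adjusted p = 0.00390) and Egr2 (1.17, adjusted p = 0.0148), immediate early factors too, were called in the same direction. Many stimuli besides FGFs raise these 3 genes.

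Ccnd1, which encodes the G1 cyclin D1, had 990, 964 and 1072 CPM in control and 348, 367 and 362 CPM in APPswe libraries (log2 fold change -1.49, SE 0.08, adjusted p = 0.000296). The phosphatase gene Dusp4 fell from 17.5, 25.5 and 19.4 CPM to 7.63, 9.47 and 8.43 CPM (-1.29, SE 0.18, adjusted p = 0.00438). The ETS factor gene Etv1 fell from 23.5, 21.2 and 20.5 CPM to 11.9, 10.8 and 9.44 CPM (-1.02, SE 0.13, adjusted p = 0.00321). For each of the 3, every APPswe value lay below every control value, and control replicate 2 was within the range of the other controls or close to it for Ccnd1 and Etv1.

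Other ETS factor and phosphatase genes of the list, named after their values were seen, were below the fold limit. Etv5 had 95.7, 92.0 and 97.9 CPM in control and 56.3, 51.3 and 52.8 CPM in APPswe libraries (-0.83, adjusted p = 0.00103). Dusp6, the phosphatase that inactivates ERK, had 124, 74.5 and 118 CPM in control and 66.7, 68.6 and 65.5 CPM in APPswe libraries (-0.66, adjusted p = 0.0471). Dusp7 (-0.57, adjusted p = 0.0803), Dusp5 (0.21, adjusted p = 0.742) and Etv4 (-0.06, adjusted p = 0.906) did not pass. None of Spry1, Spry2, Spry3 and Spry4, which encode the Sprouty inhibitors, reached an adjusted p of 0.05 in edgeR. By adjusted p whatever the fold, 4 genes of the list were higher and 7 were lower, where 10.5% and 12.0% of all genes were. These counts were 8 and 10 without control replicate 2, where 23.3% and 25.0% of all genes were. The called counts were 2 higher and 3 lower without control replicate 2, where 4.87% and 6.58% of all genes were. Without APPswe replicate 3 they were 3 in all, where 281 genes were called higher and 230 lower of 13742 tested.

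**Figure D4:**
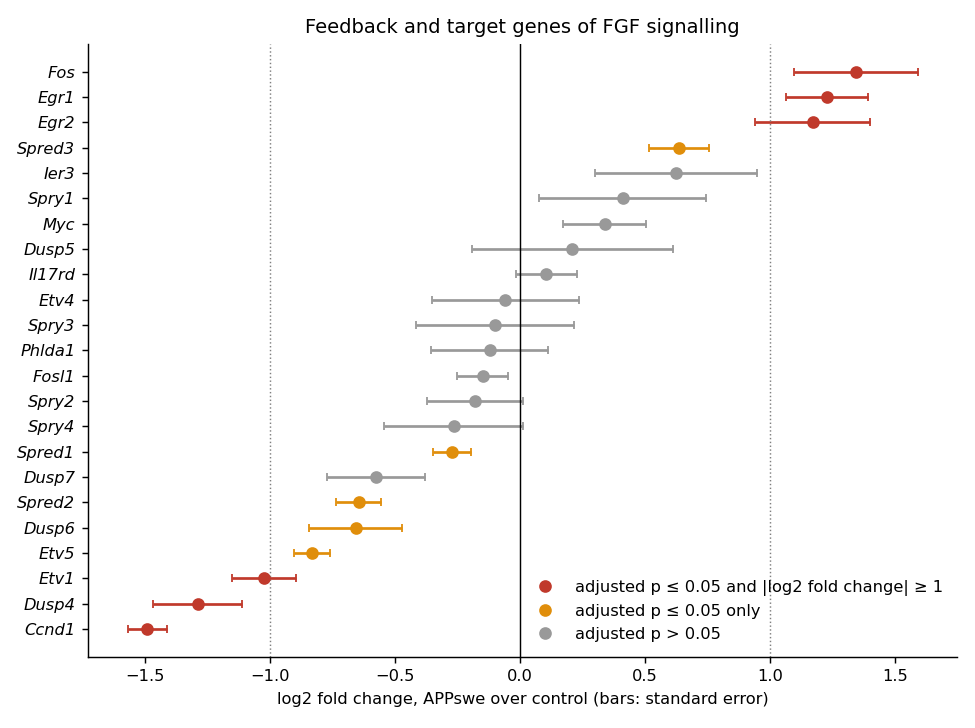
Log2 fold change of APPswe over control for the 23 feedback and target genes (points, bars are the standard error, n = 3 libraries each), coloured by whether a gene passed both limits, the adjusted p limit alone or neither. Fos, Egr1 and Egr2 lie at the right end and Ccnd1, Dusp4 and Etv1 at the left end, and the Spry genes lie between them in grey.

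Of the sodium channel genes, the partners of FGF homologous factors, 5 of 13 were tested. Scn3b, a channel beta subunit, was lower, as was Fgf13, and went from 7.74, 5.28 and 7.56 CPM to 1.57, 1.06 and 0.955 CPM (log2 fold change -2.51, SE 0.27, adjusted p = 0.00193). Without control replicate 2, 2 channel genes were called higher and 2 lower of 7 tested.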

How the data were processed

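Bulk RNA of 3 control and 3 APPswe libraries was read from tables the authors deposited. The deposited counts are raw reads per gene, and the FPKM values are the authors' length-normalized levels, rounded, with blank cells (397 or 716 genes by library) read as 0. The deposited log2 fold changes and p-values are the authors' own comparison and were not used. GRCm38 is given in the submitters' processing notes. The aligner and counter are not given in the sources used here.

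Genotypes were compared on the counts by edgeR 4.0.16 under R 4.3.3 (TMM, filterByExpr, quasi-likelihood test, no covariate), with Benjamini-Hochberg adjustment over 13484 of 17830 genes. CPM values are TMM-scaled. The floor was 3 counts (0.167 to 0.173 CPM), which covers counting error only. Alternatives used DESeq2 1.42.0, limma 3.58.1 on log2(FPKM + 1) or log2(FPKM + 0.1), other filters and scalings, the library name style, a replicate block and each library left out. Likeness to Fgf10 used log2 CPM with a prior count of 2. The tests were tested on simulated data.

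The members and gene lists were chosen with earlier results of these data known. Named genes are the members, up to 6 called genes of each list by fold (the most abundant where none was called), the genes nearest to Fgf10 in rank or profile, and those stated as named after their values were seen. Some genes of the lists are counted but not reported here by name.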

Additional observations from a re-analysis of the deposited data

How the results depend on the processing

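Over 408 recomputed single-gene values, 324 kept their direction and side of the threshold, 78 kept the direction but lost it, 1 gained it and 5 turned sign. With each library left out, Fgf18 ranged from -0.12 (without control replicate 2) to 0.66 and Fgfr1 from -0.28 to 0.049 (without control replicate 3). The sign also turned for Fgfr1 in limma on log2(FPKM + 1), with or without a filter (0.019), and on log2(FPKM + 0.1) (0.020). The log2 fold change of Fgf10 was -2.28 in limma on log2(FPKM + 1), with or without a filter, and -5.44 to -4.48 with each library left out.

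With at least 10 counts in every library, 320 genes were called higher and 412 lower of 12628 tested. In that setting 1 member was called lower (Fgf10 and Fgf1 were not tested), and 0 other FGF genes, 1 signal transduction gene and 1 sodium channel gene were called. DESeq2 called 518 genes higher and 610 lower of 14662, and also called 1 signal transduction gene. Without a filter 519 genes were called higher and 507 lower of 17368, and 3 other FGF genes were called. In limma on log2(FPKM + 1), 324 genes were called higher and 186 lower of 12819 tested, with 1 member higher, 1 lower and 1 sodium channel gene. Without a filter, over 17382 genes, these became 305, 170, 1, 0 and 1. On log2(FPKM + 0.1), 476 genes were called higher and 283 lower of 12819 tested, with 1 sodium channel gene.

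Libraries with the same replicate number in their titles correlated in their deviations from the group means by 0.0736, -0.0364 and 0.158. With 3 libraries in each group, these values cannot show whether a number marks a pairing. Not every library correlated best with its own number. With the replicate block, 384 genes were called higher and 324 lower of 13484 tested, with 1 member higher and 1 sodium channel gene.

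With each library left out in turn, genes called higher ranged from 281 to 670 and lower from 230 to 905, of 13603 to 13753 tested. Members called higher ranged from 0 to 2 and lower from 0 to 3. The counts were 0 to 1 for signal transduction, 3 to 6 for feedback and targets and 1 to 4 for sodium channels. Depth limited Fgf1, Fgf18 and Fgfr3, with 7 to 86 counts, and genes at a few counts.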
